A study of Mus musculus with 6 samples.

Results

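The TGF-beta and BMP signalling genes of mIMCD3 cells were examined after 1 h with aldosterone or with vehicle. mIMCD3 is a mouse cell line derived from the inner medullary collecting duct, and aldosterone is an adrenal steroid hormone that makes the kidney retain sodium. RNA from 3 aldosterone samples and 3 vehicle samples was hybridised to 6 one-colour oligonucleotide arrays, 1 per treatment in each of 3 numbered repeats of the experiment, called replications here. The labels give neither a dose nor a passage, and they do not say how the cultures of a repeat were set up, so p-values measure only the spread between these samples, which may be technical. The members were all probe sets annotated with a single gene symbol that begins with Tgfb, Bmp, Inha, Inhb or Acvr, or with Smad or Gdf and a digit, or that is Id1, Id2, Id3 or Id4. This gave 60 probe sets for 48 genes, of 12422 probe sets and 8251 genes with a symbol of their own in all. By role they were 28 probe sets of 22 ligand genes, 14 of 11 receptor genes, 8 of 7 Smad genes, 4 of the 4 Id genes, and 6 of 4 genes that share a name with the family without being ligands or receptors.

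Ligands of the TGF-beta superfamily are secreted dimers that join a type II receptor kinase to a type I receptor kinase. The type I receptor phosphorylates Smad2 and Smad3 in the TGF-beta and activin branch, or Smad1 and Smad5 in the BMP branch, and these enter the nucleus with the shared partner Smad4. Smad6 and Smad7 are inhibitory Smads, made in response to the signal, that block the receptors. The Id proteins lack a DNA-binding region and hold basic helix-loop-helix factors inactive, and their genes are classic direct targets of BMP signalling and also respond to serum. In the kidney, BMP7 is needed for nephron formation, and TGF-beta drives fibrosis.

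Values are intensities after each array was scaled to a common trimmed mean, and differences are on a log2 scale after a pseudocount of 53.0 was added, which understates the change of dim probe sets. A probe set was tested when its mean log2 value was at least 8.87, equal to an intensity of 414. Of the members, 33 probe sets of 27 genes passed and 27 did not, and 21 genes had no probe set that passed. Per the deposited values, 5 arrays shared a scale and the aldosterone array of replication 3 lay on a much lower one, so that 1 step of its stored decimals is 2.42 after scaling, against 0.0838 to 0.0840 on the other arrays. Of the listed markers of the collecting duct, 17 of 22 were on the array and 10 were bright enough to be tested, among them the keratins Krt7, Krt8, Krt18 and Krt19, the claudins Cldn4 and Cldn7, and Pax2 and Pax8. The principal cell markers Aqp2, Avpr2 and Hsd11b2 were under the brightness threshold. Of the markers of other cell types, 5 of 12 for fibroblasts, 1 of 8 for endothelium, 4 of 9 for leukocytes, 2 of 7 for proximal tubule and 2 of 3 for intercalated cells that were on the array were bright enough.

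Transcripts of the pathway were not resolved as different after 1 h of aldosterone. In limma's moderated test of treatment, adjusted by Benjamini-Hochberg over 7453 probe sets, 0 of the 33 tested members had an adjusted p under 0.05, and each had an adjusted p of 0.9995. The background was the same, since 0 of 7453 probe sets (0%) were called. At an unadjusted p under 0.05 there were 0 of 33 members, against 72 of 7453 probe sets (0.966%). With the replication as a block the members again gave 0, against 250 of all probe sets (3.35%). Without the aldosterone array of replication 3, whose scale stood apart, 0 of 32 members were called. Among listed corticosteroid targets the log2 difference was 1.63 for the kinase gene Sgk1, 1.26 for the clock gene Per1 and 0.87 for the transcription factor gene Cebpd. Their aldosterone arrays all lay above their vehicle arrays, as in 1.91% of all tested probe sets, and they did not pass the adjustment either. Of the 12 listed targets that were tested, 11 were higher and 1 lower by sign, with Fkbp5 at -0.0049 and Angptl4 at 0.04. On the array 5 more, among them Tsc22d3, were under the brightness threshold. Among the members, log2 differences ran between -0.62 and 0.52 around a median of 0.01, against a median of -0.0003 over all tested probe sets. By sign alone 19 were higher and 14 lower. Of the 33, 3 were higher and 3 lower in all 3 replications (9.09% each), which is near the background of 10.5% higher and 11.5% lower. The 3 higher were Smad3, Tgfb1i1 and a probe set of Smad1, and the 3 lower were 1 probe set each of Bmp6, Bmp1 and Acvrl1. In bulk RNA a difference in the make-up of the cells and one in RNA per cell cannot be told apart.

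**Figure D1:**
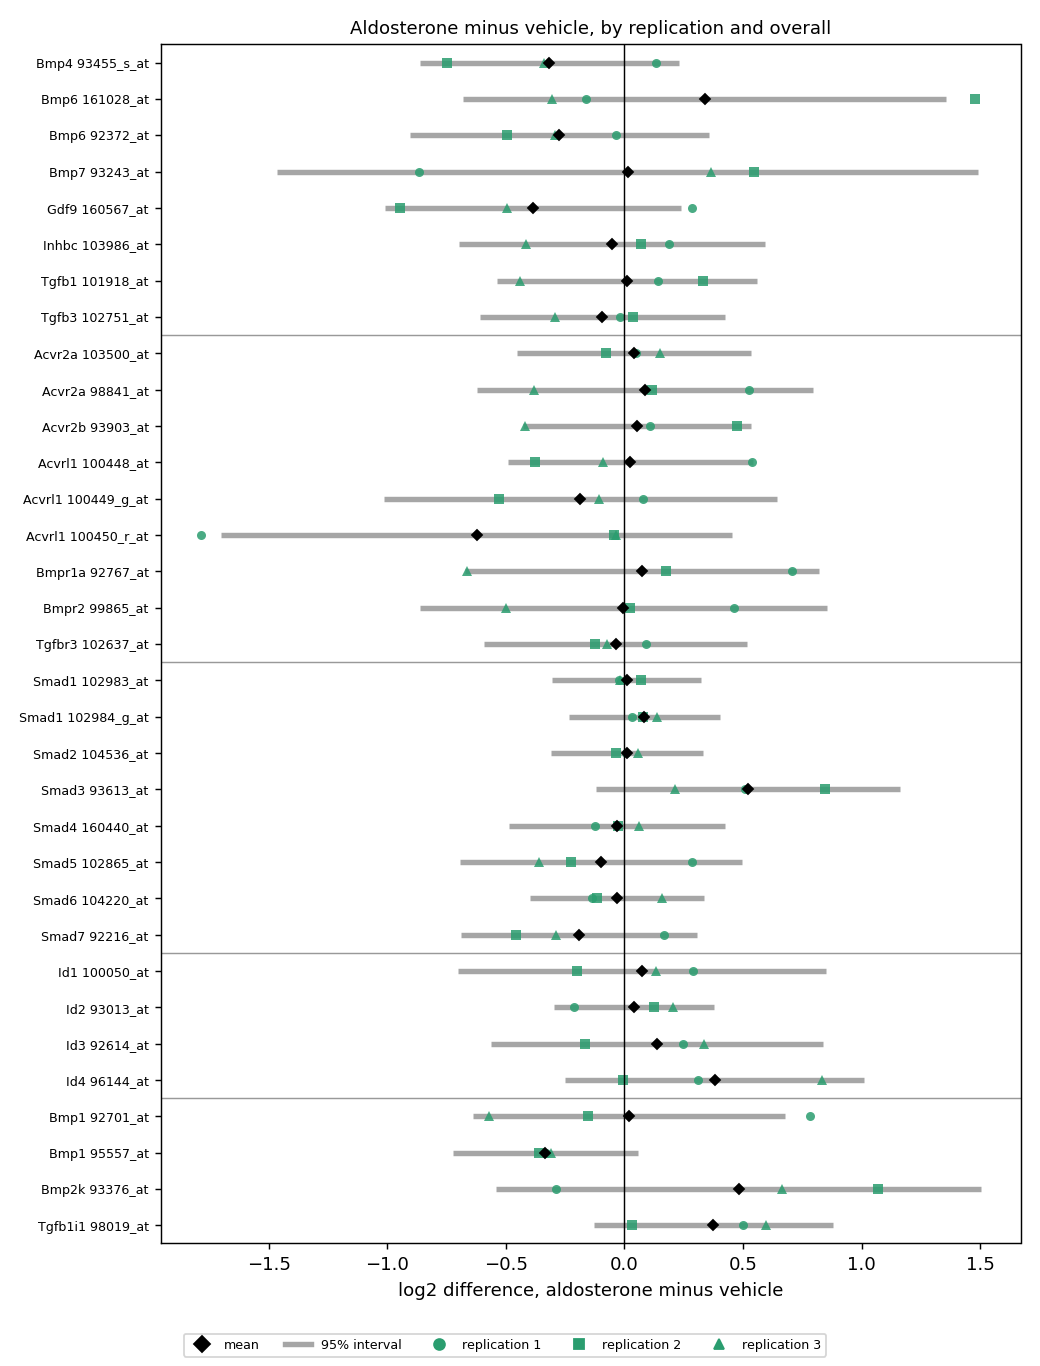
Log2 difference, aldosterone minus vehicle, for the 33 tested probe sets (horizontal axis), grouped from top to bottom as ligands, receptors, Smads, Id genes and genes named alike. Black diamonds are means over 3 replications, grey bars are 95% intervals of limma's fit on group alone, and green symbols are the replications. Every grey bar crosses 0, and the means lie between -0.62 and 0.52.

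Among the ligands, 8 of 28 probe sets, of 7 of 22 genes, were bright enough to be tested. Tgfb1, the ligand that gave the family its name, read 1582, 2534 and 1678 with aldosterone, against 1428, 2001 and 2293 with vehicle in replications 1, 2 and 3, an order used for all values below. Its groups overlapped, and its log2 difference of 0.01 had a 95% interval of -0.54 to 0.56. Intervals here and below are from the fit on group alone unless a block is named. The median standard error of the tested members was 0.264 in this fit and 0.226 with the replication as a block. Tgfb3 read 818, 754 and 633 with aldosterone, against 830.1, 735 and 788 with vehicle in one probe set, again with overlap (log2 difference -0.09, interval -0.61 to 0.42). Bmp4, a BMP that binds Bmpr1a and Bmpr2, read 1173, 1014 and 878 with aldosterone, against 1064, 1739 and 1123 with vehicle. Its vehicle array of replication 2 stood above the rest, and its log2 difference was -0.32 (interval -0.86 to 0.23).

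The probe sets of Bmp6, known in mammals for its role in iron balance, gave opposite signs. One (92372_at) read 487, 384 and 411 with aldosterone, against 501, 562 and 516 with vehicle, with all aldosterone arrays below all vehicle arrays and a difference of -0.28 (interval -0.91 to 0.36). The other (161028_at) read 818, 766 and 812 with aldosterone, against 921, 241 and 1016 with vehicle, a difference of 0.34 (interval -0.68 to 1.36) that came from 1 low vehicle array, and without that array the difference was -0.26. Gdf9, an oocyte factor, read 904, 510.0 and 612 with aldosterone, against 731, 1031 and 883 with vehicle, and was lower in 2 of 3 replications (-0.38, interval -1.01 to 0.24). Inhbc, an activin subunit made mainly in liver, read 609, 607 and 389 with aldosterone, against 528, 575 and 537 with vehicle (-0.05, interval -0.70 to 0.59). Bmp7, the ligand needed for kidney development, had no common direction, with log2 differences of -0.87, 0.55 and 0.37 within the replications; its level is taken up with the replications below.

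The other 15 ligand genes had no tested probe set, and a second probe set of Bmp4, between 229 and 389, was also under the threshold. Tgfb2, another TGF-beta ligand, read 295, 424 and 401 with aldosterone, against 317, 166 and 246 with vehicle. Inhba, the subunit of activin A, read 221, 443 and 254 with aldosterone, against 373, 459.6 and 569 with vehicle. Inhbb, the subunit of activin B, read 159.5, 254 and 215 with aldosterone, against 152, 95.7 and 50.2 with vehicle. Inhbb was higher in all 3 replications and did not overlap, while Inhba was lower in all 3 and did overlap. The probe sets of Bmp2 stayed between 2.77 and 379, Bmp5 between 44.1 and 249, and Bmp10, Bmp15, Bmp8a and Bmp8b between 26.8 and 283. Gdf3, Gdf5, Gdf10, Gdf11, Inha and Inhbe ranged between 42.5 and 523. Over the 27 dim members of any role, 2 were higher and 7 lower (7.41% and 25.9%) in all 3 replications, against 6.86% higher and 18.3% lower of 4969 dim probe sets, so that more dim probe sets read lower than higher with aldosterone in general. Groups that did not overlap were 1 higher (Inhbb) and 4 lower among them, with a background of 1.87% and 6.98%. The 4 were Bmp10, Bmp15, a probe set of Bmp2 (161901_r_at) and the second probe set of Tgfb3, at 45.3 ± 3.91 with aldosterone and 79.8 ± 2.77 with vehicle (SD, n = 3 each). When limma was fitted without the brightness threshold, the smallest unadjusted p of a dim member was 0.0608, for Inhbb.

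**Figure D2:**
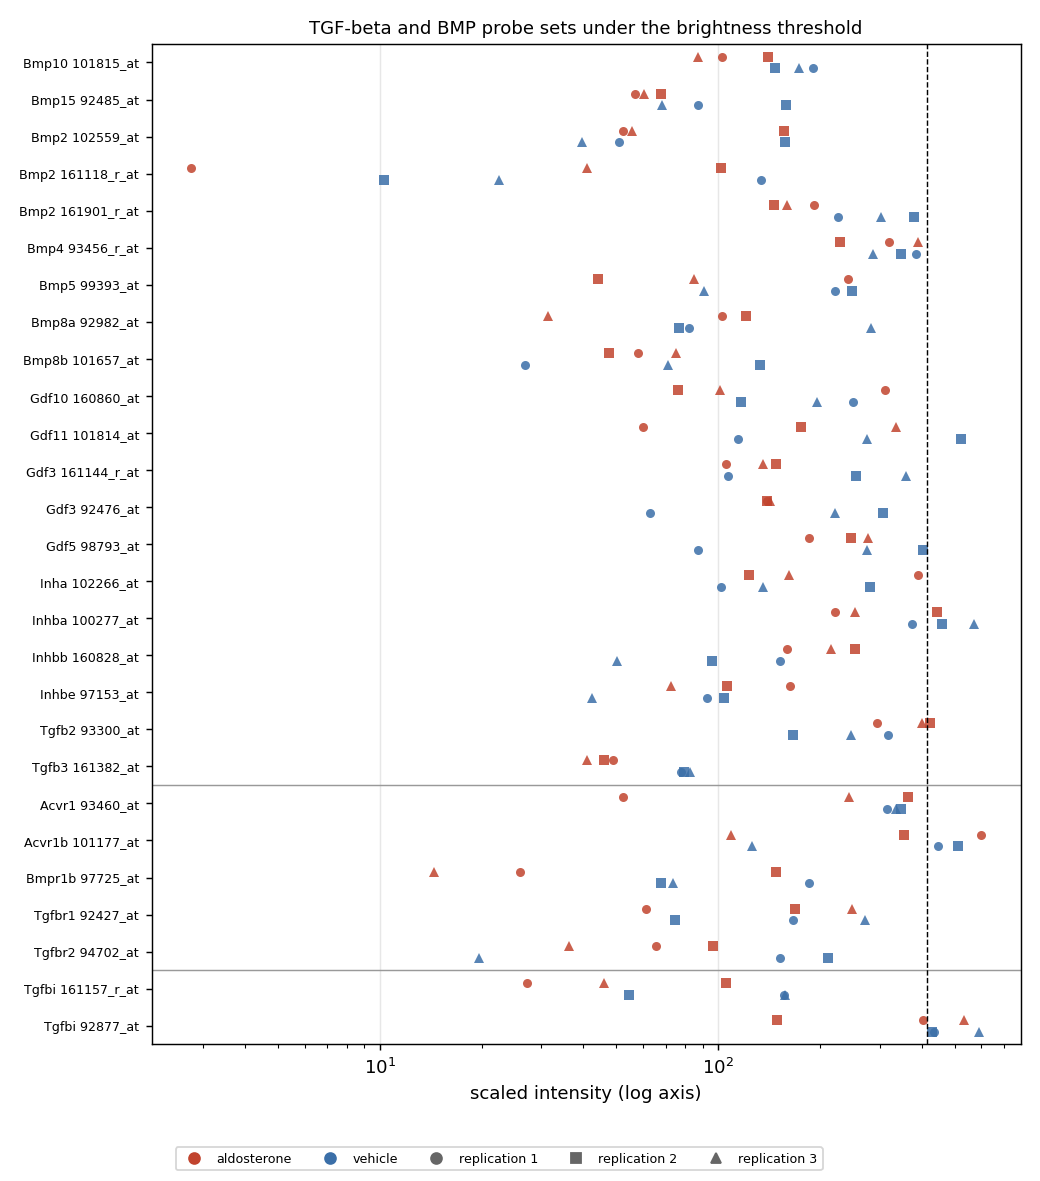
Scaled intensity (log axis) of the 27 member probe sets whose mean lay under the brightness threshold, on each of the 6 arrays, aldosterone in red above vehicle in blue, with a symbol for each replication. The dashed line marks the intensity of 414 that the threshold on the mean corresponds to, and single arrays reach up to 598.

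Receptors were represented by 9 tested probe sets of 6 genes, and both receptors specific to TGF-beta itself were dim. Tgfbr1, its type I receptor, read 61.3, 169 and 249 with aldosterone, against 166, 74.5 and 272 with vehicle. Tgfbr2, its type II receptor, read 65.4, 96.6 and 36.3 with aldosterone, against 153, 212 and 19.6 with vehicle. Both genes overlapped between the groups. Tgfbr3, the co-receptor betaglycan that presents the ligand, was bright enough and read 704, 802 and 933 with aldosterone, against 659, 879 and 984 with vehicle, a difference of -0.04 (interval -0.59 to 0.52).

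The activin and BMP type II receptors on the array were all bright enough. Acvr2a read 1823, 1384 and 2231 with aldosterone, against 1762, 1461 and 2003 with vehicle in one probe set, with a difference of 0.04 (interval -0.45 to 0.53), and the other read 702, 443 and 396 with aldosterone, against 471, 405 and 532 with vehicle (0.09). Acvr2b read 1859, 1821 and 1293 with aldosterone, against 1722, 1295 and 1748 with vehicle (0.05, interval -0.43 to 0.54). Bmpr2, the type II receptor used by BMPs, read 1282, 687 and 409 with aldosterone, against 917, 674 and 599 with vehicle. Both groups were highest in replication 1 and lowest in replication 3. The difference was -0.0037 (interval -0.86 to 0.86, or -0.60 to 0.60 with the replication as a block).

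Of the type I receptors, Bmpr1a, which binds Bmp2 and Bmp4, read 2237, 1039 and 1011 with aldosterone, against 1351, 915 and 1630.3 with vehicle. The aldosterone array of replication 1 was the highest, the log2 differences within replications were 0.71, 0.18 and -0.66, and the mean was 0.07 (interval -0.67 to 0.82). Acvrl1, a type I receptor best known from endothelium, had 3 tested probe sets. The first read 1239, 894 and 1093 with aldosterone, against 838, 1175 and 1166 with vehicle (0.02, interval -0.49 to 0.54). The second read 652, 304 and 338 with aldosterone, against 614, 463 and 369 with vehicle (-0.19, interval -1.01 to 0.64). The third read 232, 1183 and 781 with aldosterone, against 931, 1222 and 802 with vehicle. Its difference of -0.62 (interval -1.70 to 0.45) was the lowest of any tested member and rested on the aldosterone array of replication 1, without which it was -0.012. Acvr1, Acvr1b and Bmpr1b were under the threshold, with ranges of 52.2 to 364, 109 to 598 and 14.5 to 185. Acvr1 also had a single low reading in the aldosterone array of replication 1, at 52.2.

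All 7 Smad genes on the array were bright enough, and the interval of each included 0. Smad1, of the BMP branch, read 9270.3, 7731 and 9281 with aldosterone, against 9058, 7311 and 8422 with vehicle in one probe set and 4033, 3799 and 4066 with aldosterone, against 4098, 3611 and 4123 with vehicle in the other. The groups overlapped in both, and the log2 differences were 0.08 (interval -0.24 to 0.40) and 0.0099 (interval -0.30 to 0.32). Smad5, the other BMP Smad, read 707, 647 and 754 with aldosterone, against 569.6, 766 and 982 with vehicle (-0.10, interval -0.69 to 0.50).

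Smad2, of the TGF-beta and activin branch, read 3672, 3579.7 and 3365 with aldosterone, against 3649, 3671 and 3228 with vehicle. Its 6 values lay close together, and its difference of 0.01 had an interval of -0.31 to 0.33. Smad3, its partner in that branch, read 561, 659.6 and 571 with aldosterone, against 379, 344 and 485 with vehicle. All 3 aldosterone arrays were above all 3 vehicle arrays, and the log2 difference of 0.52 had a standard error of 0.285 and an interval of -0.12 to 1.16, or 1.44-fold with bounds of 0.920 and 2.24. Limma gave an unadjusted p of 0.0996 (0.113 with the replication as a block) and an adjusted p of 0.9995, so this difference was not called. It was the only tested member whose aldosterone arrays all lay above its vehicle arrays, 1 of 33 (3.03%) against a background of 1.91%. In the other direction 2 of 33 (6.06%) were separated, a probe set of Bmp6 and one of Bmp1, against 2.27%.

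Smad4, the common partner, read 6527, 7233 and 10386 with aldosterone, against 7121, 7373 and 9949 with vehicle. The difference between treatments was -0.03 (interval -0.49 to 0.43, or -0.23 to 0.17 with the replication as a block), while both arrays of replication 3 were high. The inhibitory Smad6 read 1929, 2118 and 2432 with aldosterone, against 2125, 2299 and 2175 with vehicle (-0.03, interval -0.40 to 0.34). Smad7, the inhibitory Smad that TGF-beta induces, read 2806, 1814 and 1651 with aldosterone, against 2491, 2507 and 2030.3 with vehicle. It was lower in 2 of 3 replications, and its difference of -0.19 (interval -0.69 to 0.31) was not called.

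The 4 Id genes, known as targets of BMP signalling, were all bright enough. BMP activity itself was not measured. Id1 read 6635, 3098 and 2862 with aldosterone, against 5416, 3561 and 2606 with vehicle. Id3 read 4311, 3319.7 and 2282 with aldosterone, against 3627, 3726 and 1799 with vehicle. In both genes both arrays of replication 3 were the lowest, in Id1 both arrays of replication 1 were also the highest, and the treatments overlapped. Their differences between treatments were 0.08 (interval -0.70 to 0.85) for Id1 and 0.14 (interval -0.56 to 0.84) for Id3. With the replication as a block their intervals were narrower, -0.21 to 0.36 for Id1 and -0.17 to 0.45 for Id3. Id2 read 7643, 7270.1 and 8747 with aldosterone, against 8852, 6659.7 and 7592 with vehicle (0.04, interval -0.30 to 0.38), with overlap. Id4 read 733, 607 and 720.4 with aldosterone, against 581, 610.4 and 380.4 with vehicle, and its mean difference of 0.38 (interval -0.25 to 1.01) came mostly from replication 3, where it was 0.84. All 4 means were above 0 by sign, none was higher in all 3 replications, and 0 of 4 were called.

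The promoters of Id genes are shown because Id3 was called between replications, as given below, and Id2 and Id4 were not. That of Id1, which was also called, was missing from the promoter sequences used here. The RefSeq promoter sequences used here (GRCm38.p6) matched 34 of the 48 member genes, among them Id3 (chr4:136143572-136143821, plus strand), Id2 (chr12:25096093-25096342, minus strand) and Id4 (chr13:48260866-48261115, plus strand). The 250 bases upstream of each start are given 5′ to 3′, with capitals marking matches on either strand to the Smad-binding letters GTCTG, the GC-rich BMP element GGCGCC, the core TGACG of cyclic AMP elements and the EGR element GCGGGGGCG.
Id3: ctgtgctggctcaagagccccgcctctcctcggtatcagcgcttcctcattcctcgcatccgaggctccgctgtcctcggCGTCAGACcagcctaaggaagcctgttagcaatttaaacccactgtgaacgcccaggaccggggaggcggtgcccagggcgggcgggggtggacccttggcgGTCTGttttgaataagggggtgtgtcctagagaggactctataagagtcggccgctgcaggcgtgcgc
Id2: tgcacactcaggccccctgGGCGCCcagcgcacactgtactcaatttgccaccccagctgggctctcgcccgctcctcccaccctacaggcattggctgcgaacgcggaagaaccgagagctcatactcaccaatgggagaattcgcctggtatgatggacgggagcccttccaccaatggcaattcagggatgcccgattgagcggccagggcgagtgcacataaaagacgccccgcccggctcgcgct
Id4: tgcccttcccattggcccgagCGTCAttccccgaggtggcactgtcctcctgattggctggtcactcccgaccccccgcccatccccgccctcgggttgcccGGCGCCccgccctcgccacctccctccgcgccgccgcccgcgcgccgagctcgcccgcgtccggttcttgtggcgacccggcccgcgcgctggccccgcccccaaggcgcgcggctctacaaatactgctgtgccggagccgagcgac
The Id3 stretch held GTCTG at 2 places, starting 167 and 68 bases before the start, and TGACG at 170 bases, where it shares letters with the first of these. The Id2 stretch held GGCGCC at 231 bases. The Id4 stretch held GGCGCC at 148 and TGACG at 229 bases, and the EGR element had no match in any of the 3. Of 32851 promoter stretches of the same length, 42.2% held GTCTG, 17.8% TGACG, 9.59% GGCGCC and 2.57% the EGR element. The letters AGAACA, a core element of steroid receptors, were in 16.1% of all stretches and in none of these 3. The motifs were chosen after the values were seen, and a match is a description of the letters.

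Of the genes that share a name with the family, Bmp1 is a metalloprotease that trims procollagen, Bmp2k a kinase, Tgfbi a matrix protein induced by TGF-beta, and Tgfb1i1 a focal adhesion protein that also binds steroid receptors. A Bmp1 probe set read 1525, 1341 and 1325 with aldosterone, against 1934, 1734 and 1655 with vehicle. Its differences were even, -0.33, -0.36 and -0.31 within the replications, and all aldosterone arrays lay below all vehicle arrays. It had the smallest unadjusted p of any member in limma's fit, 0.0858 (0.0581 with the replication as a block, adjusted p = 0.998), at a mean of -0.33 (interval -0.72 to 0.06). Another Bmp1 probe set did not share it and read 1273, 1256 and 812 with aldosterone, against 718, 1403 and 1231 with vehicle (0.02, interval -0.64 to 0.68). Tgfb1i1 read 1957, 1654 and 1509 with aldosterone, against 1370.1, 1616 and 979.7 with vehicle. It was higher in all 3 replications, with overlap, at a difference of 0.38 (interval -0.13 to 0.88, unadjusted p = 0.127 by limma). Bmp2k read 651, 456 and 774 with aldosterone, against 807, 189.6 and 468 with vehicle (0.48, interval -0.54 to 1.51), and the probe sets of Tgfbi were dim, between 27.3 and 591. Of the 5 member genes with more than 1 tested probe set, 3 gave opposite signs.

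**Figure D3:**
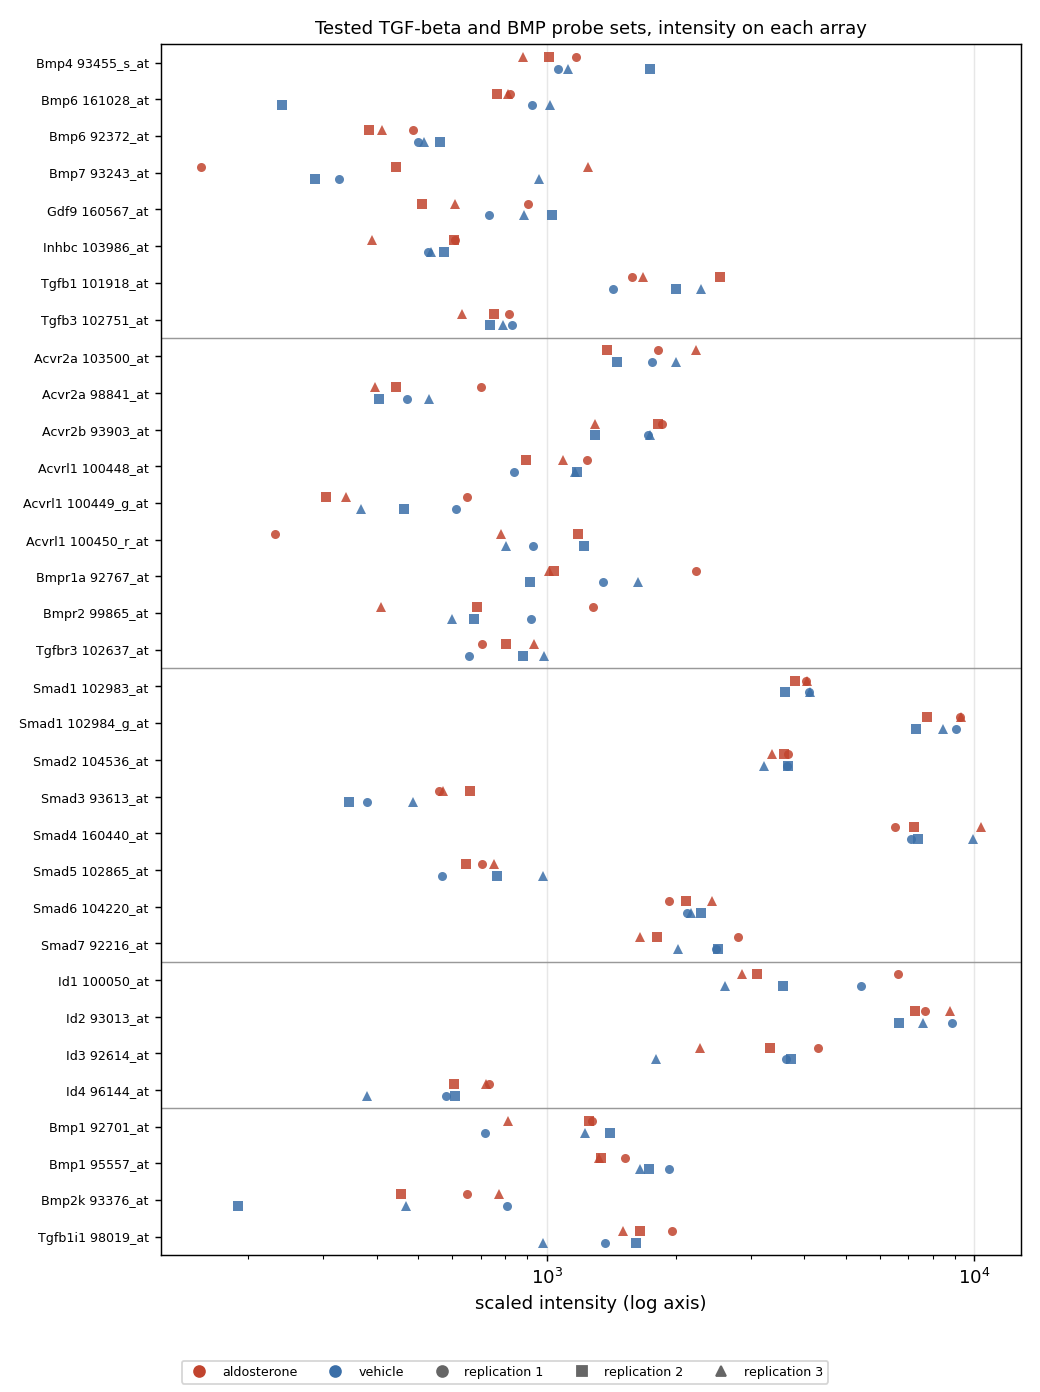
Scaled intensity (log axis) of the 33 tested member probe sets on each of the 6 arrays, aldosterone in red above vehicle in blue, with a symbol for each replication, grouped as ligands, receptors, Smads, Id genes and genes named alike. Red and blue overlap in all but Smad3, a probe set of Bmp6 (92372_at) and a probe set of Bmp1 (95557_at).

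The rest of the pathway was counted from lists, with the brightest probe set per gene. Among secreted and surface regulators, 26 of 45 listed genes were on the array and 13 were tested, and by sign 2 were higher and 11 lower, around a median difference of -0.08. The lowest p belonged to the BMP antagonist Nog (-0.49, standard error 0.362), the co-receptor Eng (-0.73, 0.563) and the proteoglycan Bgn (-0.23, 0.199). Nog read 796, 403 and 336 with aldosterone, against 573, 945 and 611 with vehicle, and Eng read 1714, 707 and 220.0 with aldosterone, against 956, 1023 and 1491 with vehicle. Among intracellular partners 31 genes were tested, 19 higher and 12 lower by sign (median 0.03). The Smad corepressor Skil had 0.60 (0.401), Xiap 0.50 (0.357) and the phosphatase subunit Ppp2ca -0.24 (0.2). For Skil the differences within the replications were 0.0058, 1.84 and -0.04, and its mean came from 1 low vehicle array, at 221 in replication 2. In limma's fit 0 genes of either list were called, as in the background of 0%.

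Genes that TGF-beta commonly induces gave 14 higher and 8 lower of 22 tested (median 0.04), with 5 higher and 0 lower in all 3 replications. Over all 5640 tested genes the median was -0.002, and 10.5% were higher and 11.7% lower in all 3. The matrix glycoprotein gene Sparc read 3304, 5293 and 3285 with aldosterone, against 5402, 5249 and 5797 with vehicle, a difference of -0.50 with a standard error of 0.197 (unadjusted p = 0.0313 by limma, adjusted p = 0.9995). Tnc, another matrix gene, had 0.75 (0.36), and the sphingosine kinase Sphk1 had 0.99 (0.482). Both of these were higher in all 3 replications. At an unadjusted p under 0.05 by limma there was 1 of the 22, against 72 of 7453 probe sets (0.966%). With the replication as a block there were 4 of the 22, counted by 1 probe set per gene, against 250 of 7453 probe sets (3.35%). The smallest p with the block was that of Ccn2, the connective tissue growth factor, which read 27240.5, 13043 and 4782 with aldosterone, against 20055, 5378 and 2340.1 with vehicle. It was higher in all 3 replications, by 0.44, 1.27 and 1.01 (mean log2 difference 0.91), with an adjusted p of 0.124 with the block and 0.9995 without it in limma's fit, so that it was not called. Of genes that BMP commonly induces other than the Ids and Smads, 6 of 18 on the array were tested, 3 higher and 3 lower by sign. They included Pax2 at -0.35 (0.244), Msx1 at 0.20 (0.329) and Gata2 at 0.14 (0.244), and 0 genes of either list were called.

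Levels of 4 members differed between the replications. Limma's F test of the replication terms, with treatment in the model and adjustment over all probe sets, called 4 of the 33 members (12.1%), against a background of 7.82%, and at an unadjusted p under 0.05 there were 7 of 33 (21.2%) against 27.5%. The unadjusted share of members was below that of all probe sets. The 4 were Id1, Id3, Smad4 and Bmp7, and Bmp7 passed the brightness threshold only through its high readings in replication 3. Id1 and Id3 were highest in replication 1 and lowest in replication 3, while Smad4 and Bmp7 were highest in replication 3 and lowest in replication 1.

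Id1 was 2.17-fold higher in replication 1 than in replication 3 (log2 range 1.12, adjusted p = 0.00908 by limma's F test), by 2.32-fold among the aldosterone arrays and 2.08-fold among the vehicle arrays. Id3 spanned 1.93-fold between the same replications (adjusted p = 0.0198 by limma), by 1.89-fold with aldosterone and 2.02-fold with vehicle, and in its vehicle arrays replications 1 and 2 were alike at 3627 and 3726. Smad4 was 1.49-fold higher in replication 3 than in replication 1 (adjusted p = 0.0261 by limma), by 1.59-fold with aldosterone and 1.40-fold with vehicle. Bmp7 read 155, 444 and 1247 with aldosterone, against 326, 288 and 957 with vehicle, 4.08-fold higher in replication 3 than in replication 1 (adjusted p = 0.0479 by limma). Its ratio of replication 3 to replication 1 was 8.05 with aldosterone and 2.93 with vehicle. Id2 and Id4 did not pass, with ranges of 1.18-fold and 1.22-fold (adjusted p = 0.347 and 0.808 by limma), and Smad7 spanned 1.43-fold (0.222) and Bmpr2 2.07-fold (0.138).

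These calls depended on the variance model and on the arrays of replication 1, and the share called over all probe sets moved as well. Without the intensity trend, limma's F test called 0 of 33 members and 2 of all probe sets, with adjusted p of 0.126 for Id1, 0.152 for Id3, 0.188 for Smad4 and 0.154 for Bmp7. Without the aldosterone or the vehicle array of replication 1 it also called 0 members, against 0.939% and 0.550% of all probe sets. It called 2, Id1 and Id3, without the aldosterone array of replication 3 (7.14% of all probe sets). It called 1, Id1, without the vehicle array of replication 3 (8.13%) or without replication 3 as a whole (5.78%). It called 5 without the aldosterone array of replication 2 (15.6%), the added gene being Bmp6, or without replication 2 (10.3%), the added gene being Bmpr2. Bmp7 was not called after quantile normalization (adjusted p = 0.0538), with other pseudocounts or without the brightness threshold.

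**Figure D4:**
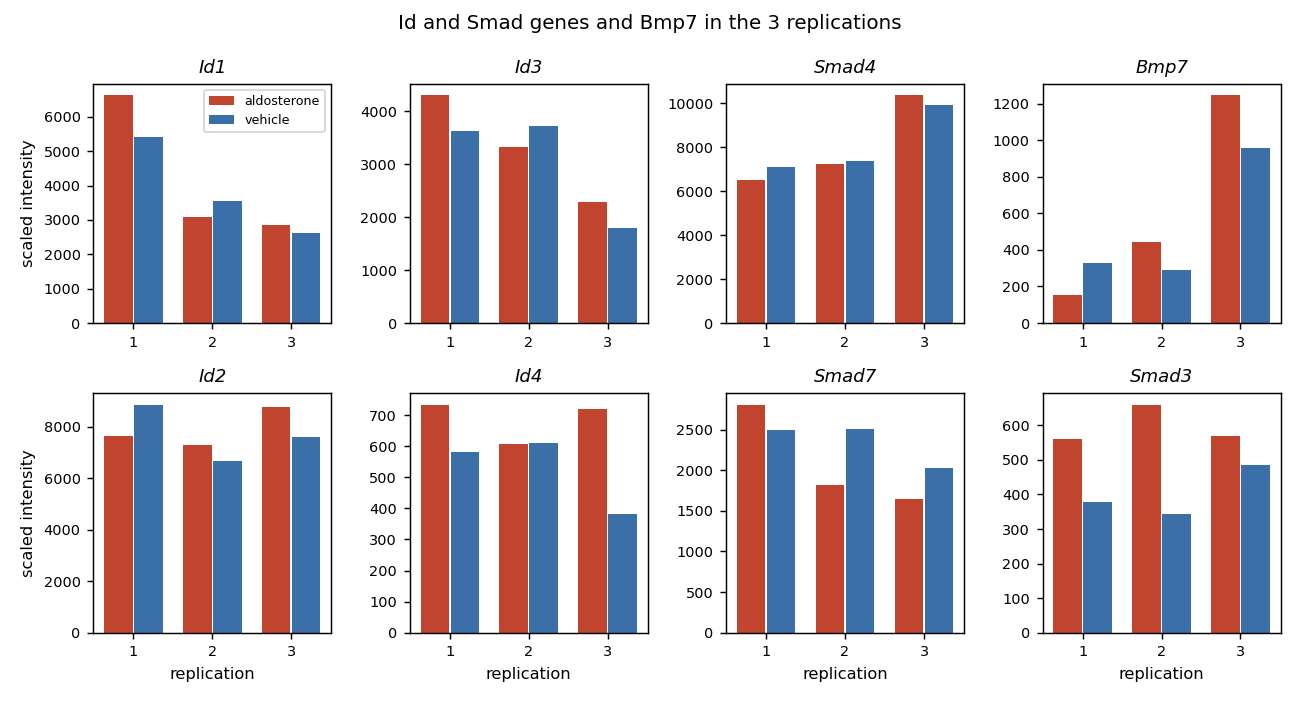
Scaled intensity (bars, linear axis from 0) of Id1, Id3, Smad4 and Bmp7, the 4 members called between replications, and of Id2, Id4, Smad7 and Smad3, in replications 1 to 3, aldosterone in red left of vehicle in blue, 1 array per bar. In the top row Id1 and Id3 are lowest and Smad4 and Bmp7 highest in replication 3, and in the Smad3 panel every red bar exceeds every blue bar.

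Other genes moved with the same replications. Of 21 tested immediate early genes, which serum and stress induce, 14 were called by the F test, all highest in replication 1, and their summed intensity was 236455 with aldosterone and 241577 with vehicle there, against 109693 to 152247 on the 4 other arrays. Between treatments 10 of the 21 were higher and 11 lower by sign, and 0 were called by limma. In all 3 replications 4 were higher and 0 lower, against 10.5% and 11.7% of all tested genes. At an unadjusted p under 0.05 limma gave 0 of the 21, and 2 of the 21 with the replication as a block, against 250 of 7453 probe sets (3.35%). The smallest p belonged to Fosb (0.28, standard error 0.209), Dusp6 (0.70, 0.55) and Plk3 (0.24, 0.243). Among genes that TGF-beta commonly induces, Ccn2, Ccn1, Junb and Bhlhe40 were called, all highest in replication 1, 4 of 22 (18.2%) against 7.73% of all tested genes, and Ccn1 and Junb are also on the immediate early list. The Notch and BMP target Hey1 and the activin antagonist Fst were also called and highest in replication 1. Hey1 was 1 of 6 tested genes that BMP commonly induces (16.7%), and Fst 1 of 13 tested secreted and surface regulators (7.69%). Of the 31 tested intracellular partners 4 (12.9%) were called, with Sp1 and Runx1 highest in replication 1. The GTPase gene Rhoa was highest in replication 2 and the ubiquitin ligase subunit Skp1 in replication 3. The collecting duct markers as a sum were lowest in replication 3, at 58129 with aldosterone and 61474 with vehicle against 80917 to 85906 on the other arrays. Cldn4 alone read 12671, 11422 and 2156 with aldosterone, against 11069, 9189 and 2713 with vehicle. Krt7, Cldn4 and Cldn7 were called, 3 of 10 tested (30%), all lowest in replication 3. Krt7 and Cldn4 were highest in replication 1 and Cldn7 in replication 2. The markers did not all share this order, as Pax8 was lowest in replication 1 and Pax2 and Krt18 were lowest in replication 2. Fibroblast markers summed to 10081 with aldosterone and 11394 with vehicle in replication 3, against 8513 to 14073 on the others, and 0 of the 5 tested were called. Col1a1, Col1a2, Fbln1, Pdgfra and S100a4 were bright enough, and the other 7 on the list, among them Col3a1, Dcn, Lum and Vim, were not. The part of these genes and cell markers in the levels of Id1, Id3, Smad4 and Bmp7 was not tested.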

How the data were processed

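RNA of 3 aldosterone and 3 vehicle samples was measured on 6 arrays. The authors deposited linear intensities, 1 value for each probe set on each array; the sources used here name no scanner, summarisation software or scaling target. As the 2% trimmed means of the arrays (86.5 on 1 array and 2488 to 2493 on 5) differed by over 10%, each array was multiplied to a trimmed mean of 2090.0. Values became log2(value + 53.0), with the 10th percentile of scaled values as pseudocount, and the 7453 of 12422 probe sets at or above the 40th percentile of mean log2 value were tested. Symbols came from GEO's platform annotation: 10833 probe sets had 1 symbol, 396 several and 1193 none, and 10817 of those with 1 symbol matched RefSeq genes of GRCm38.p6 through Entrez identifiers, with 0 symbols changed.

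Limma 3.58.1 in R 4.3.3 (lmFit, eBayes with an intensity trend, two-sided) compared aldosterone with vehicle without a block, and an F test compared replications with treatment in the model. Both were adjusted by Benjamini-Hochberg over the tested probe sets, at 0.05, and the code was tested on simulated data. The replication number was a block in an alternative fit. Per the labels a number marks 1 repeat of the experiment, and same-numbered arrays deviated together from the means of their groups, with correlations of 0.377, 0.387 and 0.471. The number of arrays limits the precision.

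The members and lists were chosen with earlier results of these data known. Values on each array were given for members with the 10 smallest p in either test, the Id genes, the Smads and the type I and II receptors, and further members were added. The 3 genes of smallest p were named from each further list. Other listed genes, named for their call between replications or as markers, were chosen after their values were seen. Alternatives were quantile normalization, other pseudocounts and brightness thresholds, no intensity trend, the block, no treatment term in the F test, and leaving out each array or replication.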

Additional observations from a re-analysis of the deposited data

How the results depend on the processing

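The count of members called between treatments was 0 in every alternative. Over all probe sets it was 0 as well, apart from 1 without vehicle replicate 2, so leaving out arrays or replications gave 0 to 1. Members at an unadjusted p under 0.05 numbered 0, but 1 (Smad3) without the intensity trend, 2 (Smad3 and Bmp1) where the replicate block was fitted without that trend, and 0 to 1 on leaving out arrays (Tgfb1i1 without vehicle replicate 2). With the replicate block alone the count was 0, and that block changed no call. The median difference of the members was -0.05 to 0.06 on leaving out arrays. Without the brightness threshold 5 members were higher and 10 lower in all 3 replications. The background was 10.5% higher and 11.5% lower of the tested probe sets, and 6.86% and 18.3% of the dim ones. With the threshold at the 60th percentile 1 member was lower, and the higher ones still included a probe set of Smad1. These counts differ because other probe sets were tested. Directions in every replication were not recounted with arrays left out. Members called between replications numbered 4, with 0 without the intensity trend and 0 to 5 on leaving out arrays. Over all probe sets 0.550% to 15.6% were called on leaving out arrays or replications. The cause was not tested. Fitting the block without the trend and taking the brightest probe set per gene were chosen after seeing the data, and the second gave counts of 0, 0 and 4 like those reported.

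Of 537 differences of tested members under the alternatives, 464 kept their sign and 73 did not, in 23 probe sets, and 0 passed the threshold. Smad3 and Tgfb1i1 kept theirs. Quantile normalization turned Smad1 (102983_at) to -0.00864 and Bmpr2 to 0.0508, and Bmp7 was -0.0212 with a pseudocount at the 25th percentile and -0.0205 with one of 1. Leaving out arrays or replications unbalances the groups, and there the log2 differences ran from -0.31 to 0.35 for Id1, -0.23 to 0.22 for Acvrl1 (100448_at), -0.19 to 0.24 for Tgfb1, -0.19 to 0.0800 for Tgfbr3, -0.17 to 0.00746 for Tgfb3, -0.29 to 0.0788 for Smad5, -0.0516 to 0.0427 for Smad1 (102983_at), -0.000765 to 0.17 for Smad1 (102984_g_at), -0.12 to 0.22 for Acvr2a (103500_at), -0.17 to 0.14 for Inhbc, -0.13 to 0.0451 for Smad6, -0.0488 to 0.0457 for Smad2, -0.23 to 0.12 for Smad4, -0.26 to 0.67 for Bmp6 (161028_at), -0.20 to 0.38 for Id3, -0.36 to 0.31 for Bmp1 (92701_at), -0.29 to 0.44 for Bmpr1a, -0.0599 to 0.16 for Id2, -0.28 to 0.67 for Bmp7, -0.00619 to 0.91 for Bmp2k, -0.16 to 0.29 for Acvr2b, -0.14 to 0.32 for Acvr2a (98841_at), -0.40 to 0.36 for Bmpr2, -1.50 to 0.15 for Eng, -0.0180 to 0.91 for Skil, -0.12 to 0.58 for Msx1 and -0.0859 to 0.51 for Plk3. The replication range of Id3 was 0.16 to 1.09, its highest replication being 2 without aldosterone replicate 2.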
